A study of Mus musculus with 44 samples.

Results

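The comparison set the 6 arrays of Ly6C- F4/80high macrophages (MFs) taken from wild-type (WT) muscle on day 2 after injury against the 4 arrays of Ly6C+ F4/80low MFs taken on day 1. These 10 arrays were chosen by their labels out of 44, and the rule used no measured value. All mice were C57B6/J, had received cardiotoxin, a snake venom toxin that kills muscle fibers, in the tibialis anterior, and were labelled non-treated. CD45+ cells were enriched with magnetic beads and sorted by antibodies to both surface antigens, so every difference below combines 1 day of time with a change of sorted subset. The same transition was read in KO mice (C57B6/J, PPARg fl/fl, LysM Cre+; 4 arrays on day 1 and 5 on day 2), in which Cre is driven from the lysozyme M promoter of myeloid cells. The 6 WT arrays of Ly6C+ MFs from day 2 split the comparison into a step in time and a step in subset. Arrays are labelled as biological replicates, and the design text speaks of 3 animals without saying which array came from which, so p-values measure the spread between these arrays.

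Ly6C+ cells at an injury are recently arrived monocytes and the inflammatory MFs they give rise to. They clear debris and release cytokines, and they are followed by Ly6C- F4/80high MFs that are known for growth factor secretion and for supporting regeneration of the muscle. The nuclear receptor PPARγ, a fatty acid sensor, is known to control lipid genes in MFs and has been tied to this repair phase.

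Values are log2 expression after RMA, a method that summarises the probes of a gene into 1 log2 number per array, and 19938 genes were tested. The medians of the 10 arrays lay between 6.64 and 6.76. Across all 35556 probe sets, arrays of 1 group correlated with r of 0.976 to 0.990, and arrays of different groups with 0.955 to 0.974. The sort markers moved as sorted: the 2 probe sets shared by Ly6c1 and Ly6c2 lay at 11.59 to 11.98 and 11.83 to 12.20 on day 1 against 8.61 to 8.94 and 8.98 to 9.63 on day 2, and Adgre1, which encodes the antigen of the F4/80high gate, was at 11.16 to 11.44 on day 1 and 11.94 to 12.16 on day 2. In all 3 the groups did not overlap. Arrays stood apart in 2 ways. Lyz2, which encodes lysozyme M, read 12.82 to 13.06 in the day 1 arrays and 12.79 to 12.96 in day 2 Ly6C- replicates 4 to 6, but 9.11 to 9.29 in replicates 1 to 3. The KO arrays, which carry Cre under the promoter of this gene, read 9.43 to 9.93. Among the day 2 Ly6C- arrays, replicate 4 had the lowest mean correlation with its group over all genes (r = 0.989, against 0.991 to 0.992 for the other 5). Whether the animals behind the arrays labelled WT day 2 replicates 1 to 3 carried LysM Cre was not tested, and the labels were kept. Outside the lists of other cells, genes named by rule that lose their call or move by over 1.5-fold with either set are given with that set. Most of them are given with both sets, and some genes with an outlying replicate 4 are also given without it.

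Of all genes, 9753 passed an adjusted p of 0.05 (48.9%), of which 5119 rose (25.7% of those tested) and 4634 fell (23.2%). Most were small: 8651 of the called genes moved by less than 2-fold, 752 genes (3.77%) rose at least 2-fold and 350 (1.76%) fell at least 2-fold. At 4-fold the balance turned, with 63 genes higher and 75 lower. All 6 day 2 arrays lay above all 4 day 1 arrays in 4091 genes (20.5%) and below them in 2466 (12.4%), and the median difference over all genes was -0.06. The RNA came from sorted populations, so a lower share of cells that express a gene cannot be told apart from less RNA per cell.

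**Figure D1:**
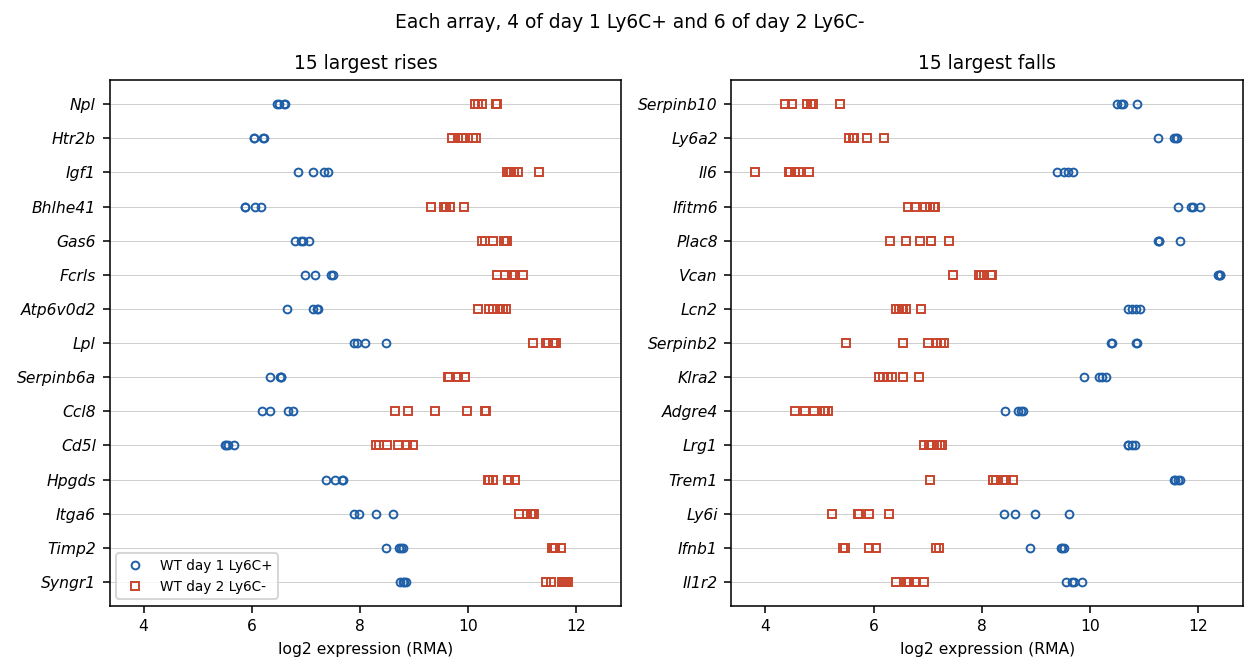
Log2 expression (RMA, x axis) of the 15 genes with the largest rise and the 15 with the largest fall; circles are the 4 WT day 1 Ly6C+ arrays and squares the 6 WT day 2 Ly6C- arrays. In each of the 30 genes the 2 groups do not overlap, from Npl (+3.82) to Serpinb10 (-5.85).

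The largest rises spanned metabolism, growth factors, uptake of dying cells and transcription. Npl, an enzyme that degrades sialic acid, read 6.51, 6.47, 6.59 and 6.62 on day 1 and 10.13 to 10.54 (median 10.40) on day 2, a difference of 3.82 (SE 0.12, adjusted p = 5.2e-27). Htr2b, a serotonin receptor, rose by 3.79 (SE 0.10) from 6.13 ± 0.10 (SD, n = 4) to 9.93 ± 0.17 (SD, n = 6). Every day 2 array of both genes lay more than 3 log2 units above every day 1 array. Igf1, a growth factor for myoblasts and fibers, read 7.42, 7.33, 6.86 and 7.13 on day 1 and 10.72 to 11.31 (median 10.83) on day 2, a 13.1-fold rise (3.71, SE 0.18, adjusted p = 1.7e-20). Its highest value was that of day 2 replicate 4, and the other 5 arrays spanned only 10.72 to 10.92. Gas6, the bridging ligand between dying cells and the receptor Mertk, rose by 3.59 (SE 0.13), and the transcription repressor Bhlhe41 by 3.63 (SE 0.19). The lipid enzyme Lpl, which frees fatty acids from lipoproteins, rose by 3.39 (SE 0.15) and Hpgds, a prostaglandin D2 synthase, by 3.03 (SE 0.15). Fcrls (3.52), the proton pump subunit Atp6v0d2 (3.44), the serpin Serpinb6a (3.31), the scavenger-receptor-like protein Cd5l (3.05), the laminin receptor subunit Itga6 (2.94), the metalloprotease inhibitor Timp2 (2.92) and Syngr1 (2.89) completed the group with the chemokine Ccl8 (3.10). Ccl8 had the widest spread of these on day 2 (SD 0.72), since replicates 1 to 3 (9.99 to 10.33) lay above replicates 4 to 6 (8.65 to 9.40), with differences of 3.72 and 2.49.

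The files used here give no detection call per probe set. Where 1 group lay below a mean of 6, near the lower quartile of all genes (5.80), its values are not shown to be above background and the measured difference gives no fold. Among the leading genes this held for Cd5l on day 1 (5.57) and for Serpinb10, Ly6a2, Il6, Adgre4 and Ly6i on day 2 (4.45 to 5.76). Bhlhe41 lay at this limit on day 1 (5.87 to 6.17), so its difference is read with the same caution. The largest falls included monocyte genes, cytokines and other secreted proteins. Serpinb10, an intracellular serpin of bone marrow cells, read 10.61, 10.87, 10.50 and 10.58 on day 1 and 4.37 to 5.38 (median 4.81) on day 2, a measured difference of -5.85 (SE 0.17, adjusted p = 3.9e-28). Ly6a2 (-5.76, SE 0.17) and Ly6i (-3.14, SE 0.23) fell too. Ly6a2, Ly6i and the Ly6c genes belong to 1 cluster of related sequences, and hybridisation between members was not tested. The cytokine Il6 read 9.70, 9.60, 9.40 and 9.53 on day 1 and 3.80 to 4.81 (median 4.50) on day 2, a measured difference of -5.11 (SE 0.30, adjusted p = 9.9e-18). Ifitm6 (-4.93), Plac8 (-4.49), the proteoglycan Vcan (-4.43), Klra2 (-3.77) and Adgre4 (-3.73), known from monocytes and other myeloid cells, fell without overlap between the groups. So did the iron-chelating protein Lcn2 (-4.25), the plasminogen activator inhibitor Serpinb2 (-3.84), Lrg1 (-3.64), the activating receptor Trem1 (-3.45), the interferon Ifnb1 (-3.13) and the decoy receptor Il1r2 (-3.03). The 4 day 1 arrays of Vcan spanned only 12.38 to 12.41, against 7.47 to 8.19 on day 2.

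**Figure D2:**
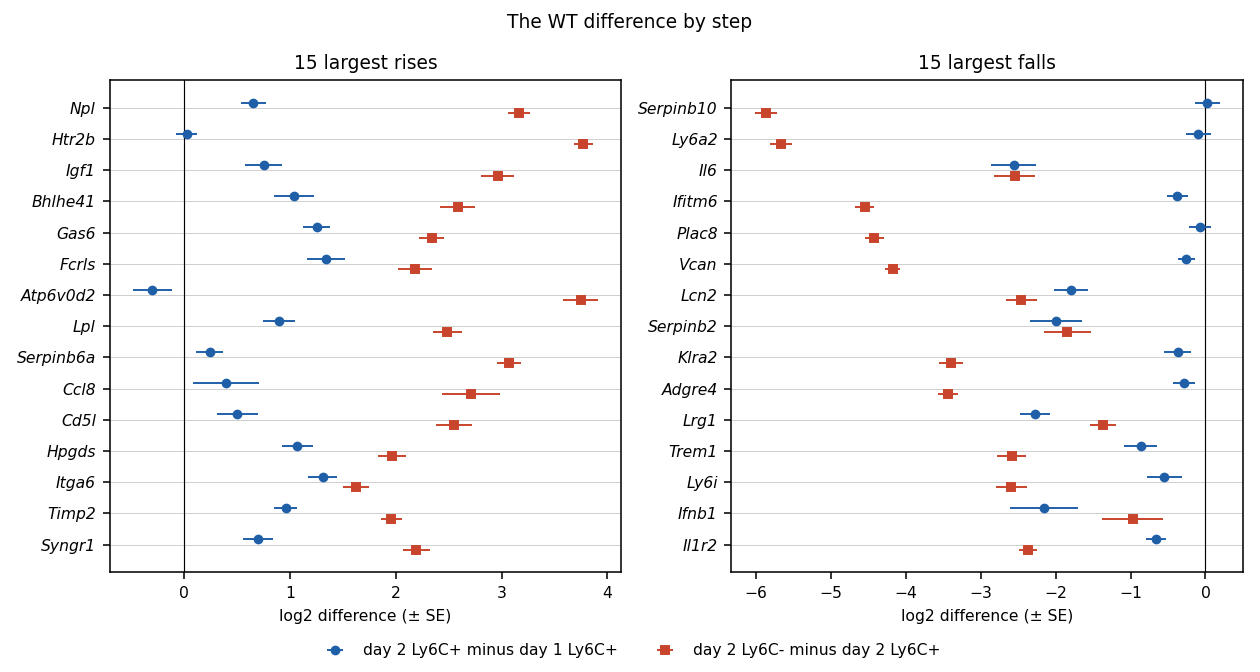
Log2 difference (± SE, x axis) of the same 30 genes for the step in time within Ly6C+ MFs (circles) and the step between the day 2 subsets (squares); the steps share arrays with the comparison and sum to it. All 15 rises have the larger value in the subset step, whereas Il6, Serpinb2, Lrg1 and Ifnb1 among the falls have it in the time step over all 6 day 2 Ly6C+ arrays, an order that turns for Il6, Serpinb2 and Ifnb1 with replicates 4 to 6 alone. For Lcn2 the order turns with replicates 1 to 3 alone. Day 2 Ly6C- values of Il6, and day 2 values of Ifnb1 in replicates 1 to 3, lay around or below 6.

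The difference could be split at the day 2 Ly6C+ arrays, which share arrays with both ends. Over all genes, 1298 rose (6.51%) and 633 fell (3.17%) from day 1 to day 2 within Ly6C+ MFs, against 4419 (22.2%) and 4588 (23.0%) between the subsets on day 2. Of the 15 largest rises all 15, and of the 15 largest falls 11, moved further in the subset step. Serpinb10 changed by 0.02 in time and by -5.87 between subsets, and Htr2b by 0.02 and 3.77. Il6 changed by -2.56 in time and by -2.55 between subsets. Serpinb2 (-2.0 and -1.85), Lrg1 (-2.27 and -1.37) and Ifnb1 (-2.16 and -0.97) had the larger value in the time step over all 6 day 2 Ly6C+ arrays, but those arrays were split. Ifnb1 read 5.77 to 6.17 in replicates 1 to 3, 6.92 in replicate 4, and 9.45 and 8.96 in replicates 5 and 6, which lay within the day 1 range or close to it. With replicates 1 to 3 of both day 2 groups its steps were -3.43 and -0.10, and with replicates 4 to 6 they were -0.90 and -1.85. In replicates 1 to 3 both day 2 groups lay around or below 6, with Ly6C- at 5.48 to 6.05. The subset step of Ifnb1 there is thus between values not shown to be above background. Serpinb2 gave -2.33 and -1.16 with the former and -1.66 and -2.53 with the latter, and Il6 -2.80 and -2.16 against -2.32 and -2.94. Il6 read 3.80 to 4.81 in day 2 Ly6C- MFs, below 6, so the size of its subset step and the order of its steps are not settled. Lcn2 had the larger value in the time step with replicates 1 to 3 (-2.50 and -1.67) and in the subset step with replicates 4 to 6 (-1.07 and -3.24). The number of falls with the larger subset step was 10 of 15 with replicates 1 to 3 and 14 of 15 with replicates 4 to 6, and all 15 rises had it with either set. Pparg had its whole change in the time step (1.10, adjusted p = 1.1e-07), with 0.07 (adjusted p = 0.63) between subsets.

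**Figure D3:**
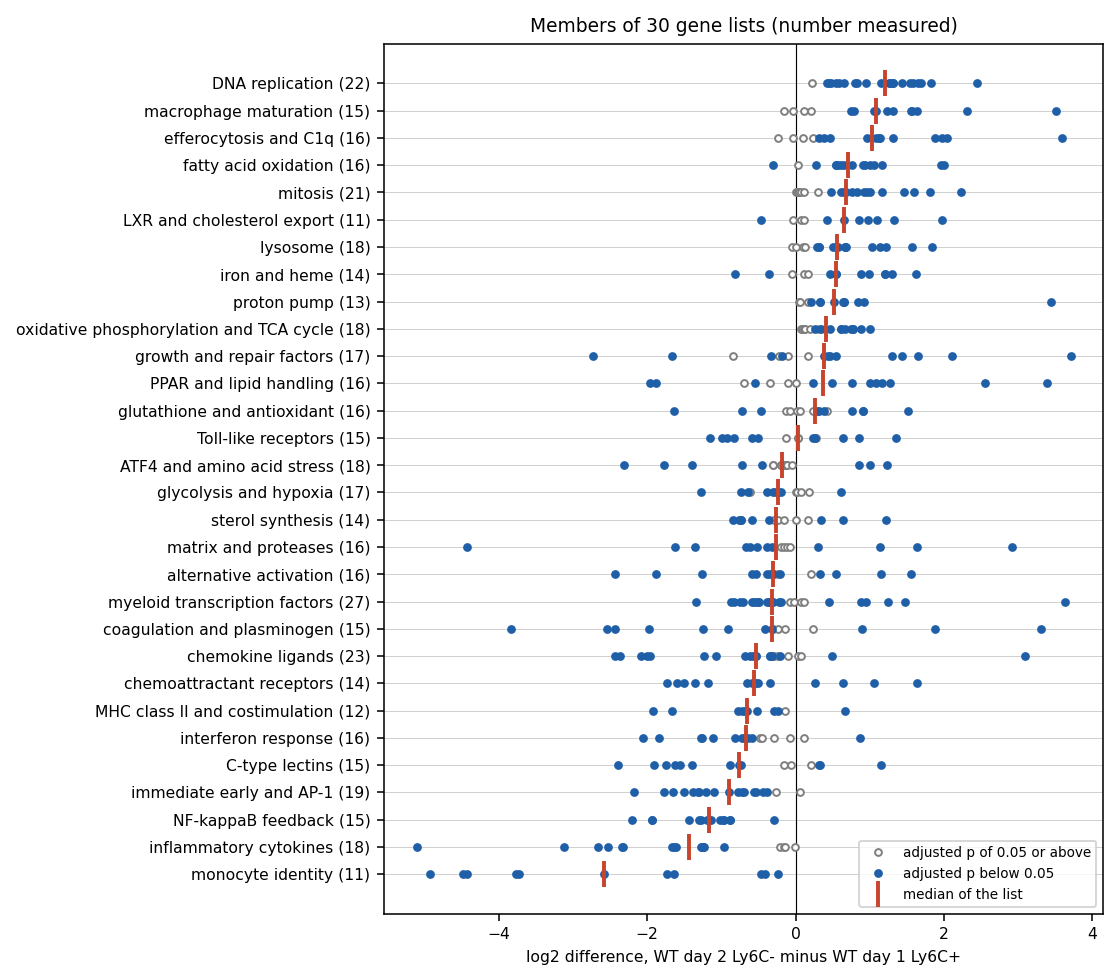
Log2 difference of each measured member of 30 gene lists (x axis); filled points have an adjusted p below 0.05, open points do not, and the bar is the median of the list. The medians run from -2.58 (monocyte identity) to 1.20 (DNA replication), against -0.06 over all genes.

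List counts are to be read beside the shares over all genes, 25.7% higher and 23.2% lower. A count near its share says little about the list. The lists were chosen with earlier results of these data known, so their counts describe the genes and are no independent check. Monocyte identity was the list with the lowest median. All 11 measured members fell, with a median of -2.58. Ifitm6, Plac8, Vcan, Klra2 and Adgre4 of this list are also among the 15 largest falls named above. Ccr2, the chemokine receptor by which monocytes leave the bone marrow, read 11.44, 11.13, 11.24 and 11.01 on day 1 and 9.05 to 9.70 on day 2, a difference of -1.74 (SE 0.12, adjusted p = 3.0e-15). The groups did not overlap. Of 15 genes of MF maturation, 11 rose, none fell and the median was 1.09. Fcrls, the folate receptor Folr2 (2.32, SE 0.14), the hyaluronan receptor Lyve1 (1.64, SE 0.19) and the tetraspanin Cd63 (1.57, SE 0.17) rose most, Mertk by 1.31 and Cx3cr1, the fractalkine receptor, by 1.06 (SE 0.19). Cx3cr1 had reached 9.48 in day 2 Ly6C+ MFs, above the 9.07 ± 0.08 (SD, n = 6) of day 2 Ly6C- MFs. The growth factor receptor Csf1r did not pass the test (-0.16, adjusted p = 0.083), nor did the mannose receptor Mrc1 (0.21, adjusted p = 0.066).

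Inflammatory cytokines fell as a group. Of 18 measured, 14 fell, 13 of them at least 2-fold, none rose, and the median was -1.44. After Il6 and Ifnb1 came the gp130 cytokine Lif (-2.67, SE 0.30) and the T cell costimulator Tnfsf9 (-2.53, SE 0.45). Il1b (-2.34), Il1a (-2.33), Osm (-1.66) and Tnf (-1.61) followed, whereas Il12b, Il15, Ebi3 and Csf2 did not pass, with differences of -0.21 to -0.01. Ifnb1 read 9.46, 9.52, 9.49 and 8.89 on day 1 and 5.43 to 7.21 on day 2, where replicates 5 and 6 (7.15 and 7.21) were the highest. The list fell in both steps, by a median of -0.66 in time and -0.61 between subsets.

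Genes that NF-κB induces and that restrain or sustain its signal fell in the same comparison. All 15 measured members of this list fell, 10 of them at least 2-fold, with a median of -1.17. The largest were the adaptor Traf1 (-2.21, SE 0.27), the inhibitor proteins Nfkbiz (-1.93, SE 0.19) and Nfkbie (-1.93, SE 0.22) and the ubiquitin ligase Birc3 (-1.44, SE 0.16). Of 19 immediate early genes, whose transcription responds within minutes of a stimulus, 17 fell and the median was -0.90. The orphan receptors Nr4a3 (-2.18, SE 0.53) and Nr4a1 (-1.65, SE 0.28), Maff (-1.77, SE 0.23) and Egr2 (-1.5, SE 0.23) fell, while Jun (0.06, adjusted p = 0.67) and Fosb (-0.26, adjusted p = 0.093) did not pass. Nr4a3 read 10.98 to 11.13 in the 4 day 1 arrays, 8.85 to 9.63 in 5 of the day 2 arrays and 6.11 in replicate 4. Its difference was -1.63 without replicate 4, -1.47 with replicates 1 to 3 and -2.90 with replicates 4 to 6. Without replicate 4, 17 immediate early genes, 14 NF-κB genes and 13 cytokines were lower.

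Promoters of 3 genes that fell are shown because each holds a match to an NF-κB motif (GGGA and TTCC separated by any 2 bases), in capitals, within the 250 bases before the start site (RefSeq, GRCm38.p6, written 5′ to 3′ on the strand of the gene). The windows are chr5:30012864-30013113 on the plus strand for Il6, chr4:88522795-88523044 on the minus strand for Ifnb1 and chr5:90785851-90786100 on the plus strand for the neutrophil chemokine Cxcl3, where 2 matches overlap.
Il6: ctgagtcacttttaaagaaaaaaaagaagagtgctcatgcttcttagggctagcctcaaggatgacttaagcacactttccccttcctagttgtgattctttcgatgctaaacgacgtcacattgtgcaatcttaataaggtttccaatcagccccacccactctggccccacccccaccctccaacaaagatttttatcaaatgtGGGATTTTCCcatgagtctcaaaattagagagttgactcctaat
Ifnb1: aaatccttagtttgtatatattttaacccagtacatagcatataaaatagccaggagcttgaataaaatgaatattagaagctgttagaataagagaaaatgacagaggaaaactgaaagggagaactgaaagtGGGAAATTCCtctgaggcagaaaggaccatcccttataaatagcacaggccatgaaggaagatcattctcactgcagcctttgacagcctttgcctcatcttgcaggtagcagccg
Cxcl3: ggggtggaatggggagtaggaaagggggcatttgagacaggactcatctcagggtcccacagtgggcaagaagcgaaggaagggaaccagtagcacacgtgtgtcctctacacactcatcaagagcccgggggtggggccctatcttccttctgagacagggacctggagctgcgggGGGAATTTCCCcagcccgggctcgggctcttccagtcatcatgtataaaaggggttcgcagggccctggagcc
On either strand and counting 50 bases past the start site too, the motif was present in 1.60% of the promoters of the 15614 tested genes that had one, in 4.63% of those of the 281 genes with promoters that fell at least 2-fold, in 1.30% of those of the 617 that rose at least 2-fold, and in 3 of 12 cytokine and 4 of 16 chemokine promoters. These are counts of letters and do not show binding.

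Chemokine ligands moved both ways. Of 23 measured, 15 fell and 2 rose, and the median was -0.53. The eosinophil attractant Ccl24 (-2.44, SE 0.15), Cxcl3 (-2.37, SE 0.27) and Ccl5 (-2.08, SE 0.37) fell, as did Ccl4 (-2.01) and Cxcl10 (-1.97). Cxcl3 read 11.33 to 11.69 on day 1 and 8.21 to 9.61 on day 2, and its change lay entirely in the time step (-2.35, with -0.01 between subsets). Ccl8 and Pf4 (0.49), a product of platelets and MFs, were the 2 that rose. The difference of Ccl5 was -1.46 when only day 2 replicates 1 to 3 were used and -2.69 with replicates 4 to 6. Of 14 receptors for chemoattractants, 10 fell and 4 rose. The leukotriene B4 receptor Ltb4r1 (-1.60, SE 0.12) and the neutrophil receptor Cxcr2 (-1.5, SE 0.15) fell beside Ccr2, and S1pr1, a receptor for sphingosine-1-phosphate, rose by 1.64 (SE 0.18). Cxcr2 read 4.39 to 4.88 on day 2, below 6, so its difference gives no fold.

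Interferon response genes fell in part. Of 16 measured, 10 fell, 1 rose and 5 did not pass, with a median of -0.67. Oasl1, which restrains translation of the interferon regulator Irf7, read 11.09, 11.29, 11.66 and 11.24 on day 1 and 8.73 to 9.70 on day 2 (-2.06, SE 0.17, adjusted p = 1.1e-13). The RNA sensor Ifih1 (-1.84, SE 0.16), Rsad2 (-1.27, SE 0.16) and Ifit1 (-1.26, SE 0.18) followed. Bst2, a restrictor of virus release, rose by 0.87, and Mx1, Usp18, Ifit2, Ifit3 and Cmpk2 did not pass (-0.48 to 0.12). The list had a median of 0.14 in the time step and -0.85 between subsets. The promoter of Ifit1 (chr19:34640639-34640888, plus strand) is shown for its 2 matches to an interferon element (TTTC, any 2 bases, TTTC), in capitals.
Ifit1: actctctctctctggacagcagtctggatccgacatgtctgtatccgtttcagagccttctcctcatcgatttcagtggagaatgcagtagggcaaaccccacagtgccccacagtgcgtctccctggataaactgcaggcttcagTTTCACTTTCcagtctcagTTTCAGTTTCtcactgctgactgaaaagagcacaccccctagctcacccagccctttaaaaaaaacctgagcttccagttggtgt
That motif was in 8 of 13 promoters of the list, in 3.89% of all promoters, in 9.96% of those of genes that fell at least 2-fold and in 3.24% of those that rose at least 2-fold.

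Receptors for microbial and cell debris signals moved both ways. Of 15 Toll-like receptor genes and adaptors, 5 rose and 6 fell, and the median was 0.04, which became -0.22 after quantile normalization. Tlr3, the endosomal receptor for double-stranded RNA, rose by 1.36 (SE 0.18), together with Tlr8 (0.86) and Tlr13 (0.64), whereas Tlr2 (-1.15, SE 0.20), the DNA receptor Tlr9 (-0.99, SE 0.15) and the lipopolysaccharide coreceptor Cd14 (-0.92, SE 0.20) fell. Tlr3 read 5.44 to 5.89 on day 1, below 6, so its difference gives no fold. Of 15 C-type lectins, 9 fell (60.0%) and 3 rose (20.0%, against 25.7% of all genes), with a median of -0.76. The fungal receptors Clec4n (-2.40, SE 0.14) and Clec7a (-1.91, SE 0.10) and the dead cell receptor Clec4e (-1.62, SE 0.36) fell together with Cd209a (-1.75, SE 0.21), and Clec10a, a receptor for galactose-type sugars, rose by 1.15. Clec7a read 11.13 to 11.36 on day 1 and 8.93 to 9.58 on day 2.

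Antigen presentation genes were lower in day 2 Ly6C- MFs. Of 12 measured, 10 fell, Ctss rose (0.67) and the median was -0.66. The costimulators Cd86 (-1.92, SE 0.18) and Cd80 (-1.66, SE 0.11) fell most, and the class II chain H2-Ab1 fell by 0.78 (SE 0.14). H2-Ab1 was higher in day 2 Ly6C+ MFs than on day 1 (0.58, adjusted p = 0.0049) and lower by 1.35 between the subsets. H2-Eb1 differed by -0.72 (SE 0.21) over all 6 day 2 arrays, by -0.35 (adjusted p = 0.22) with replicates 1 to 3 and by -1.10 (adjusted p = 9.9e-05) with replicates 4 to 6.

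Genes for the uptake of dying cells rose. Of 16 measured, 12 rose, none fell and the median was 1.03. Besides Gas6, the bridging protein Mfge8 read 7.44, 7.57, 7.69 and 7.52 on day 1 and 9.45 to 9.69 on day 2 (2.05, SE 0.12, adjusted p = 1.5e-17). The complement subunits C1qc (1.97, SE 0.18), C1qa (1.88, SE 0.21) and C1qb (1.12) rose, with no overlap between groups in C1qa or C1qc. Axl, the sister receptor of Mertk (-0.24, adjusted p = 0.13), and Pros1, the other ligand of this receptor family (0.24, adjusted p = 0.081), did not pass. Downstream, 14 of 18 lysosomal genes and 10 of 13 subunits and partners of the lysosomal proton pump rose, none fell, and the medians were 0.55 and 0.52. The collagen-degrading cathepsin Ctsk (1.84, SE 0.14), the cholesteryl ester hydrolase Lipa (1.57, SE 0.08), Glb1 (1.22, SE 0.10) and Gaa (1.14, SE 0.10) rose most in the lysosomal list, and Atp6v0d2 (3.44) had the largest rise of the pump list. Most of this lay between the subsets: the median of the pump list was -0.04 in time and 0.52 in subset.

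Iron and heme genes rose in part. Of 14 measured, 9 rose and 2 fell, and the median was 0.54. The transferrin receptor Tfrc (1.62, SE 0.11), the ferrireductase Steap3 (1.30, SE 0.11), the lysosomal heme exporter Slc48a1 (1.21, SE 0.15) and the biliverdin reductase Blvrb (1.21, SE 0.13) rose. Hmox1, which opens the heme ring, rose by 0.55 and the iron exporter Slc40a1 by 0.47, whereas the ferritin chains Fth1 (-0.05, adjusted p = 0.33) and Ftl1 (0.17, adjusted p = 0.20) did not pass.

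Several genes of lipid uptake rose, and 2 enzymes of triglyceride synthesis fell. Pparg read 9.30, 9.16, 9.18 and 9.20 on day 1 and 10.08 to 10.68 on day 2, a 2.26-fold rise (1.17, SE 0.13, adjusted p = 7.4e-10). Of 16 PPAR and lipid handling genes, 9 rose and 3 fell, with a median of 0.37. The fatty acid carrier Fabp4, a PPARγ target, rose by 2.56 (SE 0.17), the fatty acid transporter Cd36 by 1.09 (SE 0.14) and the lipase inhibitor Angptl4 by 1.01. The triglyceride synthesis enzymes Dgat2 (-1.96, SE 0.12) and Gpat3 (-1.88, SE 0.15) fell, and so did the lipase Lipe (-0.55). Cd36 was lower in day 2 Ly6C+ MFs than on day 1 (-0.46, adjusted p = 0.028) and 1.56 higher in the day 2 Ly6C- subset. Of 11 genes of the cholesterol sensor LXR, 7 rose, led by the phospholipid transfer protein Pltp (1.97, SE 0.17) and the exporter Abcg1 (1.33, SE 0.17), while the exporter Abca1 did not pass (0.11, adjusted p = 0.56). Of 14 sterol synthesis genes, 3 were higher (21.4%, against 25.7% of all genes) and 6 lower (42.9%, against 23.2%). Dhcr7 rose by 1.22 (SE 0.10), and Insig1 (-0.84, SE 0.12), Srebf2 (-0.74, SE 0.10) and Fdft1 (-0.76, SE 0.22) fell. Fdft1 did not pass with replicates 4 to 6 alone (-0.43, adjusted p = 0.15).

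Genes of fatty acid oxidation and respiration rose. Of 16 enzymes of fatty acid oxidation, 14 rose and Slc25a20 fell (-0.30), with a median of 0.71. Hadh read 8.95, 8.62, 8.85 and 8.73 on day 1 and 10.60 to 10.90 on day 2, a 3.99-fold rise (2.00, SE 0.10, adjusted p = 1.5e-20). Decr1 (1.96, SE 0.11), Acadm (1.16, SE 0.12) and Echs1 (1.06, SE 0.16) followed, all without overlap. Of 18 respiratory chain and citrate cycle genes, 11 rose and none fell, with a median of 0.41 and a largest value of 1.00 (Fh1). Glycolysis and hypoxia genes mostly did not pass: 1 of 17 rose (Pdk1, 0.61), 6 fell and the median was -0.24. The lactate exporter Slc16a3 (-1.28, SE 0.20) and the phosphofructokinase Pfkp (-0.73, SE 0.10) fell, and the glucose transporter Slc2a1 differed by -0.64 (SE 0.21), or by -0.36 (adjusted p = 0.20) with replicates 1 to 3. With those 3 replicates 2 members of this list were lower, and without replicate 4 there were 4.

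Stress and redox genes were mixed. Of 18 genes tied to the transcription factor ATF4 and amino acid shortage, 5 fell (27.8%), 3 rose (16.7%) and 10 did not pass. Their median was -0.19. After quantile normalization, 11 of these genes were lower. The cystine importer Slc7a11 read 11.81 to 11.91 on day 1, 9.61 to 10.20 in 5 day 2 arrays and 7.37 in replicate 4 (-2.31, SE 0.39, adjusted p = 3.5e-06; -1.87 without replicate 4). Nupr1 (-1.78, SE 0.14) and Ddit4 (-1.40, SE 0.30) fell, and Gpt2 rose by 1.24 (SE 0.11). Among 16 glutathione and antioxidant genes, 7 rose and 3 fell. Gsr, which regenerates glutathione, fell by 1.64 (SE 0.09), and the peroxidase Gpx3 (1.52, SE 0.19), catalase (Cat, 0.91, SE 0.08) and Gclm (0.91, SE 0.17) rose.

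Cell cycle genes rose. Of 22 DNA replication genes, 21 rose, 12 of them at least 2-fold, none fell, and the median was 1.20. The helicase subunit Mcm6 read 6.46, 6.23, 6.16 and 6.30 on day 1 and 8.38 to 9.06 on day 2, a 5.47-fold rise (2.45, SE 0.12, adjusted p = 1.0e-19). Prim1 (1.83, SE 0.15), Rrm1 (1.69, SE 0.13) and Mcm7 (1.65, SE 0.15) followed, and Rfc5 did not pass (0.22, adjusted p = 0.10). Of 21 mitosis genes, 14 rose, none fell, and the median was 0.68. The cyclin Ccna2 rose by 2.23 (SE 0.17), the spindle motor Kif11 by 1.82 (SE 0.15), and the kinase Cdk1 by 1.46 (SE 0.14), from 6.60 to 6.83 on day 1 to 7.87 to 8.59 on day 2. Mki67 (0.30, adjusted p = 0.26), Birc5 (0.04, adjusted p = 0.80) and Cdc20 (adjusted p = 0.98) did not pass. Top2a rose by 1.60 at the probe set used, and a dimmer probe set of the gene read 3.36 and 3.45, so their mean difference was 0.84. On day 1, 3 replication genes, Prim1 (4.76 to 5.19) among them, and 11 mitosis genes had means below 6. The latter included Ccna2 (5.53 to 5.90), Kif11 (5.04 to 5.33) and Top2a (5.59 to 6.05). For such genes the measured difference gives no fold. Both lists moved mainly between the subsets, with medians of 1.02 and 0.62 there and 0.22 and 0.13 in time.

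The promoters of Mcm6 (chr1:128359706-128359955, minus strand) and Cdk1 (chr10:69352913-69353162, minus strand) are shown for their matches, in capitals, to the E2F motif TTTNNCGC and, in Cdk1, also to the cell cycle element TTTGAA.
Mcm6: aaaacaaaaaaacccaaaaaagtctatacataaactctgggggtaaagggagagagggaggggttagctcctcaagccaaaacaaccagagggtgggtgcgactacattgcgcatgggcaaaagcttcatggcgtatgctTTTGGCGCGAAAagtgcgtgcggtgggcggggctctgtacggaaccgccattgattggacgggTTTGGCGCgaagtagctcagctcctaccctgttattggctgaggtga
Cdk1: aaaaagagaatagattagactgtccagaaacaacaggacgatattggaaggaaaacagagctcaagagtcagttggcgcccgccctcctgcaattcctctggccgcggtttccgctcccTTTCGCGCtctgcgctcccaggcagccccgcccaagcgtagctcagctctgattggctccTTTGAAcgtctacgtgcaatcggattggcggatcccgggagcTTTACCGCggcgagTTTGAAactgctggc
The E2F letters were in 10 of 19 DNA replication promoters (52.6%) and in 7.55% of all, and TTTGAA in 13 of 17 mitosis promoters (76.5%) and in 17.3% of all. Among genes that rose at least 2-fold the shares were 11.7% and 17.7%. The lysosomal element TCACGTGA was in 2 of 16 lysosomal and 2 of 8 proton pump promoters against 1.52% of all, and the PPAR element (AGGTCA repeated after 1 base) in none of 10 promoters of the lipid list and 0.0512% of all.

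Growth and repair factors differed in direction. Of 17 measured, 9 rose (52.9%) and 4 fell (23.5%, near the 23.2% of all genes), with a median of 0.38. Beside Igf1, Pdgfc rose by 2.11 (SE 0.11), the satellite cell mitogen Hgf by 1.65, Vegfb by 1.44 and Gdf3, a member of the TGF-β family, by 1.30 (SE 0.12). Gdf3 read 8.19, 8.10, 8.16 and 8.21 on day 1 and 8.96 to 9.74 on day 2, with 0.07 of its change in time and 1.24 between subsets. Inhba, the subunit of activin A, fell (-2.73, SE 0.40; -2.37 without replicate 4) from 10.46 to 11.22 on day 1 to 8.42 to 8.87 in 5 day 2 arrays and 6.36 in replicate 4. The EGF-like ligand Ereg fell by 1.67 (SE 0.14), and Vegfa did not pass (-0.84, adjusted p = 0.065). Ereg read 5.59 to 6.42 on day 2, around the limit of 6.

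Matrix and coagulation genes moved both ways. The elastase Mmp12 rose by 1.64 (SE 0.15) and Mmp13 by 1.14, and Timp2 rose while Timp1 fell by 1.63 (SE 0.14). In all, 4 of 16 matrix genes rose and 8 fell. Of 15 coagulation and plasminogen genes, 8 fell (53.3%) and 3 rose (20.0%). Factor X (F10) read 11.93 to 12.03 on day 1 and 9.15 to 9.92 on day 2 (-2.55, SE 0.14, adjusted p = 2.6e-18), and tissue factor (F3) fell by 2.44 (SE 0.26), while its inhibitor Tfpi rose by 1.88. Of 16 genes used as marks of alternative activation, 9 fell and 4 rose, and they did not move as 1 group. Ccl24 and the chitinase-like Chil3 (-1.88, SE 0.21) fell, Trem2, a lipid and apoptotic cell receptor, rose by 1.56 (SE 0.14), and Arg1 did not pass (-0.29, adjusted p = 0.20). Il10 fell (-1.26, SE 0.42, adjusted p = 0.013), with -0.80 (adjusted p = 0.061) without replicate 4. Its difference was -0.45 (adjusted p = 0.38) with replicates 1 to 3 and -2.07 (adjusted p = 0.0003) with replicates 4 to 6. Without replicate 4, 6 genes of this list were lower in place of 9.

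Of 27 myeloid transcription factors, 17 fell (63.0%) and 6 rose (22.2%, against 25.7% of all genes), with a median of -0.32. Bhlhe41, the hypoxia-related factor Epas1 (1.48, SE 0.14) and Cebpa (1.25, SE 0.18) rose, as did Irf8 (0.95) and Rxra (0.89), the partner of PPARγ. Epas1 read 7.24 to 7.30 on day 1 and 8.55 to 8.99 on day 2. Runx3 fell by 1.34 (SE 0.12), followed by Cebpb (-0.87) and Hif1a (-0.83).

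Markers of other cells were read beside these results. Of 16 neutrophil genes, 10 fell and Mmp8 rose (0.30), with a median of -0.52. Their summed level (log2 of the sum of linear values) was 12.78 to 12.89 on day 1 and 11.73 to 11.90 on day 2. Lcn2, Il1r2, Cd177 (-2.18, SE 0.12) and S100a9 (-1.45) fell at least 2-fold. Cxcr2 fell too, but its day 2 values (4.39 to 4.88) lay below 6, so its difference gives no fold. S100a8 (-0.89), Ly6g (-0.69, adjusted p = 4.4e-05) and Ltf (-0.28, adjusted p = 0.0011) also fell. Ly6g, Ltf, Ngp and Retnlg had means below 6 in both groups, and Mpo, Elane, Camp, Ngp and Retnlg did not pass. The part of neutrophils in the falls of inflammatory genes was not tested. Of the other lists, muscle fiber genes had 1 of 14 lower (Mb, -0.24), myoblast genes 5 of 8 (at most -0.27), fibroblast genes 4 of 10 (at most -0.27), T and NK cell genes 2 of 10, eosinophil and mast cell genes 2 of 11 and erythroid genes 2 of 3, with no member higher. Over all genes 23.2% were lower, above the shares of muscle fiber (7.14%), T and NK cell (20.0%) and eosinophil and mast cell genes (18.2%). On day 1, 7 of the 10 T and NK cell genes and 7 of the 11 eosinophil and mast cell genes had means below 6. The counts of lower genes moved with the setting: muscle fiber genes had 4 lower after centring or quantile normalization, and with replicates 1 to 3 myoblast genes had 2, fibroblast genes 1, erythroid genes 0 and B cell genes 0 lower. After quantile normalization 0 B cell genes were lower. Summed levels of these lists overlapped between the groups, at 10.55 to 10.71 against 10.44 to 10.66 for muscle fiber, except for T and NK cells (8.98 to 9.13 against 8.82 to 8.94). Of 10 endothelial genes, 6 fell and 2 rose, of 8 dendritic cell genes 4 fell (Flt3, -0.91; summed level 9.54 to 9.68 against 9.08 to 9.30), and of 8 B cell genes 3 fell and 2 rose. The B cell genes that rose were Cd22 (1.5, SE 0.11) and Cd79b (0.93, SE 0.14), while Cd79a and Ms4a1 lay below 6 in both groups, and the summed level was 9.33 to 9.45 against 10.04 to 10.34. The part of these cells in other results was not tested. Of 9 MF genes, Mertk, Adgre1 and Cd68 rose (33.3%, against 25.7% of all genes). Lyz2, Cd14, Itgam and Fcgr1 fell (44.4%, against 23.2%). With replicates 4 to 6, 3 were lower and Lyz2 did not pass.

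**Figure D4:**
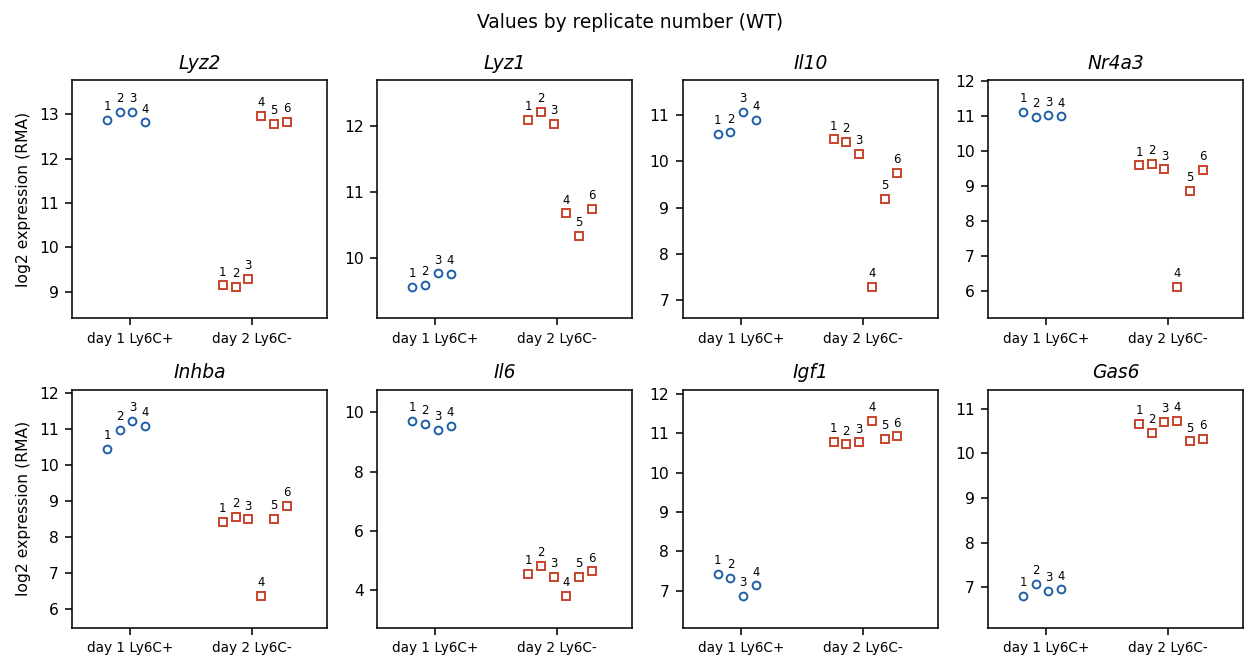
Log2 expression (RMA, y axis) of 8 genes in each WT array; circles are day 1 Ly6C+ and squares day 2 Ly6C-, and the digits are replicate numbers. Lyz2 and Lyz1 split day 2 replicates 1 to 3 from 4 to 6, replicate 4 is lowest for Il10, Nr4a3, Inhba and Il6, and Gas6 shows neither pattern.

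The lysozyme genes split the day 2 arrays. Over all 6 arrays Lyz2 fell by 1.93 (SE 0.68, adjusted p = 0.018), with -3.77 (adjusted p = 4.5e-06) for replicates 1 to 3 and -0.09 (adjusted p = 0.91) for replicates 4 to 6. Lyz1, its neighbour and paralog, was 9.57 to 9.77 on day 1, 12.04 to 12.22 in replicates 1 to 3 and 10.34 to 10.75 in replicates 4 to 6, and rose by 2.45 (adjusted p = 5.6e-08) and 0.91 (adjusted p = 0.019), respectively. The KO arrays read 11.74 to 12.57 for Lyz1. The day 2 Ly6C+ arrays had the same division, with Lyz2 at 8.67 to 8.99 in replicates 1 to 3 and 12.64 to 13.02 in replicates 4 to 6. The labels give 1 strain for all WT arrays, and whether replicates 1 to 3 of both day 2 groups came from Cre-carrying animals was not tested. With replicates 1 to 3 alone, 4707 genes rose and 3390 fell, and with replicates 4 to 6 alone 4839 rose and 4226 fell. The 15 largest rises and falls passed with either set, but they were chosen over the same arrays, so this is no independent check.

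In the KO mice the same transition was read in arrays that share none with WT. Pparg itself went from 9.08 to 9.52 on day 1 to 10.10 to 10.62 on day 2, and it was not lower than in WT at this probe set. The labels do not say which exons were removed, so this probe set does not check the deletion. In KO, 13162 genes passed (66.0%), 5266 rose (26.4%) and 7896 fell (39.6%), with 860 higher (4.31%) and 265 lower (1.33%) by at least 2-fold. The median difference over all genes in KO was -0.15, and the number lower was 4933 after quantile normalization and 4781 among genes with a mean of at least 6. Of the genes that rose in WT, 4597 also rose in KO, which were 89.8% of the WT and 87.3% of the KO genes, and 3850 fell in both (83.1% and 48.8%), the last share resting on the KO count of 7896. For at least 2-fold changes, 649 rose in both (86.3% and 75.5%) and 237 fell in both (67.7% and 89.4%). The 15 largest WT rises had KO differences of 2.54 to 4.11 and the 15 largest falls -5.94 to -2.0.

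**Figure D5:**
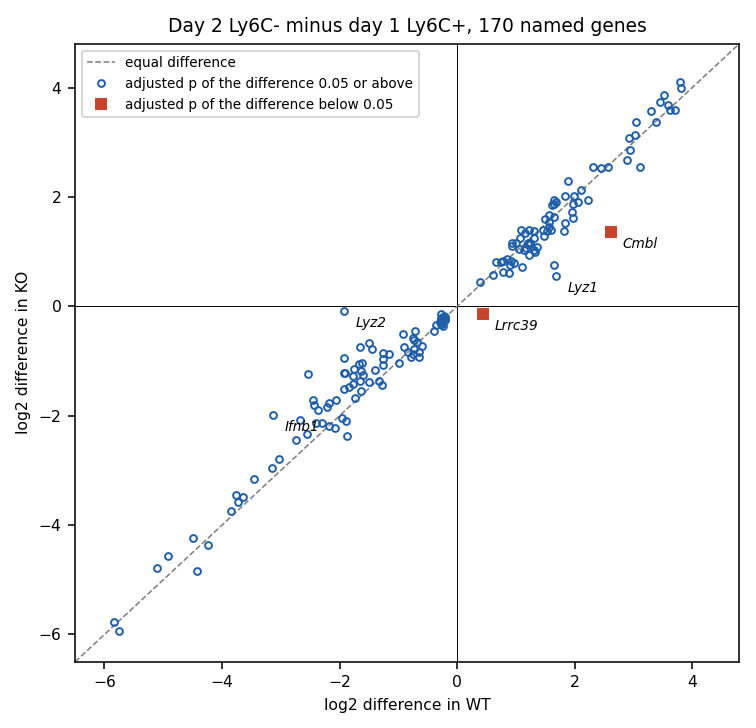
Log2 difference between day 2 Ly6C- and day 1 Ly6C+ in WT (x axis) and KO (y axis) for the 170 genes named or plotted by rule; the dashed line marks equal differences and squares mark an adjusted p of the genotype difference below 0.05. Cmbl (2.62 and 1.36) and Lrrc39 (0.45 and -0.14) are the 2 squares, and Lyz2 (-1.93 and -0.09) lies off the line without passing.

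The difference between the genotypes in this transition was tested for each gene. It passed for 2 genes, 0.01% of those tested, both with the lower value in KO, and for no gene in the other direction (0.0%). At an unadjusted p below 0.05 there were 1392 genes (6.98%). Cmbl, a hydrolase, rose by 2.62 (SE 0.13) in WT, from 4.95 to 5.44 on day 1 to 7.54 to 8.04 on day 2, and by 1.36 (SE 0.13) in KO, where day 2 arrays read 6.30 to 6.95. The day 1 arrays of both genotypes lay below 6, as did all but the WT day 2 group of Lrrc39, so these differences start from values not shown to be above background. Lrrc39 rose by 0.45 (SE 0.07) in WT and changed by -0.14 (SE 0.07, adjusted p = 0.067) in KO. Both passed with day 2 replicates 1 to 3 and with replicates 4 to 6. They were chosen over the same arrays, so this is no independent check. With replicates 1 to 3 in place of all 6, however, 191 genes passed, against 2 with replicates 4 to 6, and replicates 1 to 3 were the arrays with lysozyme levels near those of KO. The genotype difference of the transition did not pass for Pparg (-0.10, 95% interval -0.48 to 0.28), Fabp4 (-0.02, -0.51 to 0.48), Igf1 (-0.11, -0.63 to 0.40) or Gdf3 (-0.05, -0.40 to 0.30), so differences of the sizes within these intervals could have been missed. For Gdf3 this is not an equal level: it was lower in KO on day 1 (6.76 to 7.17 against 8.10 to 8.21; -1.17, SE 0.13, adjusted p = 3.7e-07) and on day 2 (8.06 to 8.44 against 8.96 to 9.74; -1.22, SE 0.11, adjusted p = 4.0e-09), and it rose by 1.30 in WT and 1.25 in KO.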

How the data were processed

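RNA of sorted MFs was hybridised to Affymetrix mouse Gene 1.0 ST arrays. The deposited log2 values had been made by the authors with RMA, which corrects background, quantile-normalizes and summarises probes. Its version is not given in the sources used here, and the values were used unchanged. Of 35556 probe sets, 21789 carried 1 gene symbol, 1621 several and 12146 none. For the 999 genes with several probe sets, the one with the highest mean over the 44 arrays was used, which left 19938 genes. Array number and signal over background limit the precision. limma 3.58.1 (R 4.3.3) was fitted to all 44 arrays with 1 mean for each of 10 groups, taken from the labels (34 residual and 6.46 prior degrees of freedom), and every adjusted p is its moderated test with Benjamini-Hochberg adjustment over the 19938 genes. A gene passed at an adjusted p below 0.05. Tests were two-sided and were tried on simulated data. No pair of the 44 arrays was identical.

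The comparison, gene lists and motifs were chosen with earlier results of these data known. Genes named by rule were the 15 largest rises and 15 largest falls, up to 4 members of each list with the largest difference past the threshold, fixed genes of the study (Pparg, Lyz2, Lyz1, Gdf3, Igf1, Adgre1, Ccr2, Cx3cr1, Cd36, Fabp4) and the genes of the genotype difference. Predicted genes were left out of names. Other list members were named after their values were seen. Alternatives were other array sets, centring, quantile normalization, a mean of at least 6, the mean over probe sets, trend and array weights, a replicate block and leaving out each array. The fit without the block on the same arrays and the list counts without day 2 replicate 4 were added after seeing the data, as were the steps by replicate set and the test of genotypes within each day for 6 genes. Promoters came from RefSeq (GRCm38.p6), from 250 bases before to 50 after the start, on both strands. Analysis used Python 3.11.15 with pandas 2.3.3 and numpy 2.4.6.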

Additional observations from a re-analysis of the deposited data

Results flagged for a closer look

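In 340 groups of 4 or 6 values (1 gene in 1 group), 25 held an array with a gap to the others above Dixon's critical value, where chance gives about 1 in 20. Replicate 4 of WT day 2 Ly6C- was that array in 16 of the 25. It was the lowest for Il6 (3.80, others 4.44 to 4.81), Vcan (7.47), Trem1 (7.05), Cxcl3 (8.21), Traf1 (6.61), Nr4a3 (6.11, others 8.85 to 9.63), Maff (6.55), Ifih1 (8.67), Cd14 (10.56), Inhba (6.36, others 8.42 to 8.87), Cd86 (8.51), Slc16a3 (9.42) and Slc7a11 (7.37, others 9.61 to 10.20), and the highest for Igf1 (11.31), Scd2 (10.45) and Gpx3 (9.24). Among the other day 2 Ly6C- arrays, replicate 6 was high for F3 (7.25) and Prim1 (7.46), and replicate 1 for Cx3cr1 (9.22). Among the day 1 arrays, replicate 4 was low for Atp6v0d2 (6.66), Serpinb6a (6.34) and Ifnb1 (8.89), replicate 3 was high for Plac8 (11.68) and low for Slc48a1 (10.57), and replicate 2 was low for Gsr (11.27, others 11.30 to 11.31). The cause was not tested.

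The genotype difference of the transition passed for Cmbl (-1.26, 95% interval -1.63 to -0.89, adjusted p = 0.00044) and Lrrc39 (-0.59, -0.78 to -0.40, adjusted p = 0.0026) in limma's test of the interaction.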

How the results depend on the processing

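For the named genes, 3605 recomputed values kept their direction and side of the threshold, 124 kept the direction but lost the call, and none reversed. Of the lost calls, 117 were in genes that only the marker lists hold, including Lyz2 of the MF list. The call of Lyz2 was lost with only the 10 compared arrays (adjusted p = 0.056). It was also lost without day 2 replicate 1, 2 or 3 (adjusted p = 0.059, 0.055 and 0.056). The counts of the WT comparison (5119 higher, 4634 lower) were 4872 and 3605 with only its 10 arrays, 4859 and 5797 after centring, 4255 and 4804 after quantile normalization, and 4959 and 3667 among genes with a mean of at least 6. Leaving out 1 array gave 7890 to 10176 genes in all, 4722 to 5217 higher and 3168 to 5085 lower, with the lowest count lacking day 1 replicate 4. Day 1 and day 2 arrays share only a replicate number: deviations of same-numbered arrays correlated at -0.131 to 0.208, and no array correlated best with its own number. With the number as a replicate block over replicates 1 to 4, 4548 genes were higher and 2776 lower, and without the block on those arrays 4695 and 3074, so fewer arrays entered both. In KO, 4933 genes were lower after quantile normalization and 4781 with a mean of at least 6, against 7896, and leaving out 1 array gave 11549 to 13038 in all, 4959 to 5192 higher and 6590 to 7846 lower. The genotype difference passed for 191 genes with day 2 replicates 1 to 3 (75 higher, 116 lower in KO), for 4 after quantile normalization, all 4 lower, and for 1, lower, with a mean of at least 6. A mean of at least 6 leaves out 5844 genes, Lrrc39 among them, so its counts come from fewer tested genes. Beyond that, the cause of these shifts was not tested. Genes near background may show changes poorly. Of the 5844 genes with a mean below 6, 265 rose and 1142 fell, against 5119 and 4634 of all 19938 tested.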
